A study of Mus musculus with 2 samples.

Results

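CD8 T cells of orthotopic prostate tumors were described in 2 scRNA-seq libraries, 1 from a tumor of a vehicle-treated mouse (control) and 1 from a tumor of a mouse given enzalutamide (ENZ), an antiandrogen drug for PCa. They were chosen by their own counts of unique molecular identifiers (UMIs), each standing for 1 captured RNA molecule. A cell was a barcode with at least 1000 UMIs and at most 20% of them mitochondrial. A CD8 T cell was a cell with at least 2 UMIs of Cd3d, Cd3e and Cd3g together, at least 1 of Cd8a or Cd8b1, 0 of Cd4 and of Foxp3, at most 2 of Krt8 and Krt18 (keratins of the cancer cells) and at most 2 of C1qa, C1qb and C1qc (complement genes of macrophages). This rule found 254 CD8 T cells among 22524 cells, 95 of 12253 in the control and 159 of 10271 under ENZ.

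Both tumors were raised by placing RM-1, a mouse PCa line that resists ENZ without prior selection, in the prostate of C57BL/6 mice. The labels give the genotype of both as WT and differ only in the treatment. The age of the mice was not given in the sources used here, and the labels name the cell type as the cancer cell although the files also hold immune and stromal cells. The study enriched immune cells and stained CD45 during sorting, so a share of all cells depends on the sort as well as on the tumor. Each treatment has 1 library from 1 mouse, so treatment, mouse and library cannot be told apart and no test between conditions was possible. All intervals below are 95% intervals of counting error within these 2 libraries.

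CD8 T cells recognize peptides on MHC class I through a T cell receptor of an alpha and a beta chain, with the CD8 coreceptor binding the MHC molecule. On activation they divide, leave the naive program of Tcf7 and Lef1, and produce granzymes, perforin, interferon-gamma and chemokines such as CCL5. In tumors, repeated stimulation is known to drive them to express inhibitory receptors such as PD-1 (Pdcd1) and TIM-3 (Havcr2) with the transcription factor TOX.

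The CD8 T cells held 605524 UMIs in the control and 917998 under ENZ. Their median depth was 4760 UMIs and 1776 genes per cell in the control and 5034 UMIs and 2006 genes under ENZ, and the median mitochondrial share was 2.57% and 1.95%. The deepest cells had 33157 and 20642 UMIs. Levels below are UMIs summed over the CD8 T cells of a library and scaled to the same total (CPM), and every comparison of levels is of the same gene between libraries or cell types.

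The coreceptor genes that chose the cells were both detected in 37 of 95 control and 71 of 159 ENZ cells, Cd8a without Cd8b1 in 28 and 46, and Cd8b1 without Cd8a in 30 and 42. Cd8a (chr6:71373427-71379173) and Cd8b1 (chr6:71322788-71337494) are neighbours on the + strand of GRCm38. In 36 of 95 control and 58 of 159 ENZ cells the call rested on 1 CD8 UMI, the limit of the rule. At the CD3 limit, 5 control and 18 ENZ cells had exactly 2 CD3 UMIs, with a Ccl5 level of 5720 and 3599 CPM, and 4 and 19 barcodes that missed the rule by 1 CD3 UMI had 517 and 4338 CPM. The limits on keratin and C1q UMIs left 95 of 117 otherwise fitting control barcodes and 159 of 173 ENZ barcodes. The shallowest members had 1968 and 1380 UMIs, and 1 control and 0 ENZ barcodes with at least 500 but under 1000 UMIs met the rest of the rule.

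Markers that the rule did not use were detected in the chosen cells. Ccl5, a chemokine of activated and memory CD8 T cells, stood at 2647 CPM (interval 2519 to 2780) in the control and 3117 CPM (3003 to 3233) under ENZ, against 605 and 266 CPM in CD4 T cells without Foxp3. Nkg7, a granule protein of cytotoxic lymphocytes, stood at 705 and 682 CPM, against 233 and 189 CPM in CD4 T cells. Themis, a signaling protein of the T cell lineage, stood at 502 and 962 CPM and had 0 UMIs in NK cells of either library. Granzyme K (Gzmk) stood at 69.4 and 113 CPM and at 6.64 and 3.16 CPM in CD4 T cells. CD8 T cells were above CD4 T cells in both libraries for all 3 markers compared with them, Ccl5, Nkg7 and Gzmk. NK cells also held Ccl5, at 1672 and 1666 CPM, and Nkg7, at 693 and 900 CPM, so Nkg7 did not set CD8 T cells above NK cells.

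Several defining genes of other lineages were at or near 0, while genes shared with NK and regulatory T cells were not. Of 8 B cell markers, 4 had 0 UMIs in both libraries, among them Cd79a, Ms4a1 and Pax5, and the most abundant was Igkc, at 66.1 CPM in the control and 49.0 CPM under ENZ. The NK receptor Ncr1 had 1 UMI in the control and 0 under ENZ, and Klrb1c had 2 and 2. The whole NK list of 8 genes summed to 920 and 657 CPM, led by Gzma, and the regulatory T list of 5 genes to 976 and 748 CPM, led by Ikzf2, with Foxp3 at 0 by the rule. The gamma delta receptor constant gene Trdc had 0 UMIs in both.

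Some members nevertheless carried RNA of another cell type. The mast cell proteases Cpa3, Tpsb2 and Cma1 together had 0 UMIs in the control and 567 under ENZ, of which 566 sat in 1 barcode of 13908 UMIs. The neutrophil genes S100a8 and S100a9 had 99 and 25 UMIs, 76 of the 99 in 1 control barcode. Cd74, H2-Aa, H2-Ab1 and H2-Eb1 of MHC class II summed to 1072 CPM in the control and 315 CPM under ENZ, with 32.7% of the control UMIs in 1 barcode. The summed macrophage and monocyte list was 662 and 390 CPM, with Lyz2 the most abundant, and the neutrophil list 182 and 35.9 CPM, with S100a9 the most abundant. The cancer list summed to 116 and 78.4 CPM, led by Krt8, and the fibroblast and endothelial list to 155 and 88.2 CPM, led by Col3a1. The dendritic list summed to 36.3 and 38.1 CPM, led by Itgax, and the red cell and platelet list to 29.7 and 6.54 CPM, led by Pf4. RNA free in the droplets differed between the libraries for these genes: in barcodes of at most 100 UMIs, Cd74 stood at 1612 and 659 CPM, Lyz2 at 1154 and 519 CPM and S100a9 at 1194 and 426 CPM. The level in CD8 T cells was a median 14.6% of the level in those barcodes in the control and 8.67% under ENZ over 8 marker genes, which was taken as the share of such RNA. With that share subtracted, the log2 ratio was -1.48 for Cd74 and -1.64 for H2-Aa, neither of which was used for the estimate. Of the genes used for it, Lyz2 had a log2 ratio of -1.70 after subtraction and -1.72 before, and S100a9 -0.69 after and -2.38 before. No doublet caller was run beyond the limits of the rule, and the part of doublets was not tested. How far 1 cell carried a difference was measured by leaving out, for each gene, the cell of each library with most of its UMIs.

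Across the whole libraries 39 barcode sequences of cells were shared between control and ENZ. None of them belonged to a CD8 T cell of either library.

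**Figure D1:**
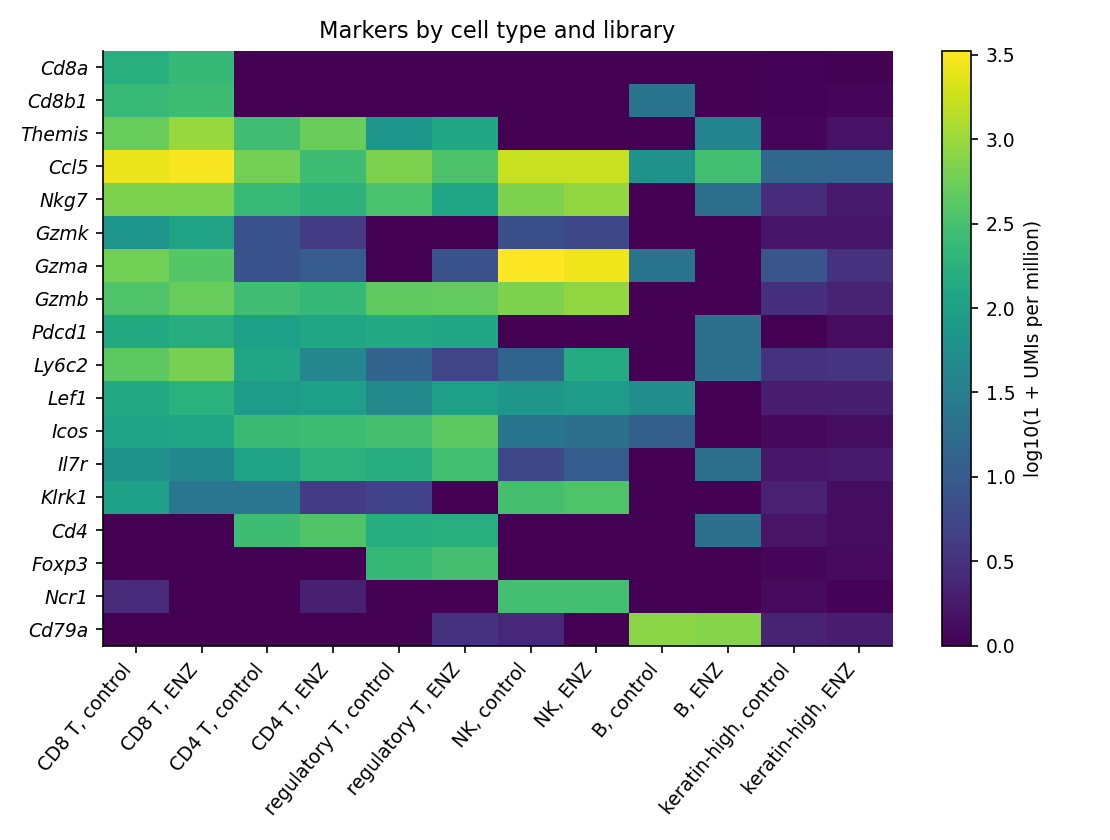
Heat map of log10(1 + CPM) for 18 genes (rows) in CD8 T, CD4 T, regulatory T, NK, B and keratin-high cells of each library (columns), a dark cell being 0 or near 0. Ccl5, Nkg7 and the CD8 genes were high in both CD8 T columns, and Ccl5 and Nkg7 were high in the NK columns as well. Cd4 and Foxp3 were at 0 in CD8 T cells by the rule. Cd79a and Ncr1 were among the genes used to choose B and NK cells.

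CD8 T cells made up a larger share of all cells in the ENZ library, and their share of the T cells depended on which T cells were counted. They were 0.775% of cells in the control (0.628 to 0.947%, Clopper-Pearson) and 1.55% under ENZ (1.32 to 1.81%), a difference of 0.773 percentage points (0.486 to 1.07). CD3-positive cells as a whole were 4.39% and 7.16% of cells. Of the CD3-positive cells, CD8 T cells were 17.7% (14.5 to 21.1%) of 538 in the control and 21.6% (18.7 to 24.8%) of 735 under ENZ. The interval of that difference of 3.97 points, -0.580 to 8.42, included 0.

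CD4 T cells without Foxp3 were 10.2% of CD3-positive cells in the control and 22.7% under ENZ, a difference of 12.5 points (8.35 to 16.5). Regulatory T cells were 7.62% and 11.2%. CD3-positive cells with no UMI of Cd4, Cd8a, Cd8b1 or Foxp3 were the most numerous in both, at 63.4% and 43.1%. Whether CD8 T cells with no CD8 UMI at this depth are among them was not tested. Among CD8 T, CD4 T and regulatory T cells alone, CD8 T cells were 49.7% of 191 in the control and 39.0% of 408 under ENZ, a difference of -10.8 points (-19.5 to -1.96). The share of CD8 T cells was thus higher in the ENZ library over all cells and lower over the T cells with an assigned coreceptor or Foxp3. When every cell was thinned to 1000 UMIs before the rule was applied, the difference in the share of CD3-positive cells was -1.72 points (-7.38 to 3.72), and with a limit of 1 CD3 UMI it was 5.0 points (1.52 to 8.41).

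**Figure D2:**
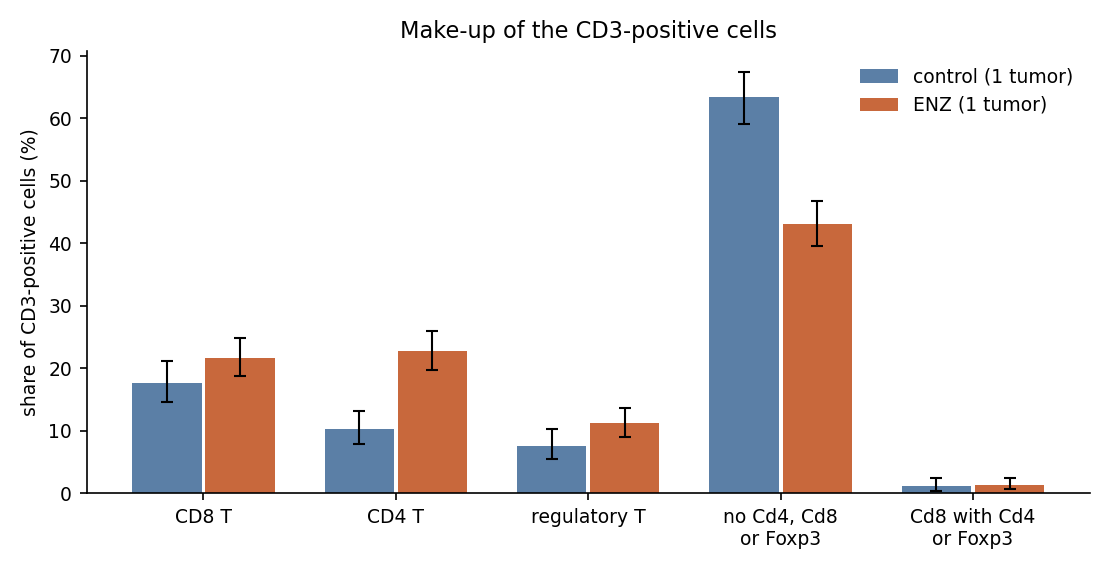
Bars show the percent of CD3-positive cells in each class for the control (538 cells) and ENZ (735 cells) libraries, with Clopper-Pearson 95% intervals as error bars. CD8 T cells were 17.7% and 21.6%, with overlapping intervals, while CD4 T cells were 10.2% and 22.7%.

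Genes that set CD8 T cells apart from CD4 T cells in both libraries included several of cytotoxic cells. Gzma, a granule protease that starts cell death in targets, had the highest rank, by the lower of the fold differences in the 2 libraries, among genes that the rules left free. Cd8a and Cd8b1 have 0 UMIs in CD4 T cells by rule, so their folds are not comparable. It stood at 601 CPM in CD8 T and 6.64 CPM in CD4 T cells of the control and at 394 and 9.47 CPM in the ENZ library. Ly6c2, a surface protein of activated and memory CD8 T cells, was 3.65-fold higher in CD8 than in CD4 T cells of the control and 14.8-fold higher in the ENZ library. Ccl5 was 4.38-fold and 11.7-fold higher, Nkg7 3.03-fold and 3.60-fold, and Setbp1, a nuclear chromatin-associated protein, 7.95-fold and 15.9-fold. The wider gaps of Ly6c2 and Ccl5 in the ENZ library came with lower CD4 T levels there, for Ly6c2 42.1 CPM against 120 CPM in the control.

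Against NK cells, the other cytotoxic lymphocytes in these tumors, the leading genes that the rules left free were Themis, Bcl11b (a factor that holds T cell identity), Trac and Pdcd1. Themis, Bcl11b and Pdcd1 had 0 UMIs in the NK cells of both libraries. The CD3 and CD8 genes also led, but the rule required them in CD8 T cells and the NK rule barred CD3, so their lead is not a result. With a floor of 3 UMIs set over the NK cells of each library, Pdcd1 in CD8 T cells was 29.0-fold above the floor in the control. In the ENZ library it was 10.9-fold above it. The lower interval bounds were 23.1 and 8.77. Gzma was higher in NK cells, at 3339 CPM in the control and 2733 CPM under ENZ.

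Since the cells and lists were chosen with earlier results known, the counts that follow are descriptions. Over the 7322 genes with at least 20 UMIs over both libraries, 14.9% were more than 1.5-fold higher in the ENZ library and 13.9% more than 1.5-fold lower, with a median log2 ratio of 0.03. A list whose shares were near these values did not stand out from the genes at large.

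The cytotoxic effector list did not stand out in its shares past 1.5-fold, and its granzymes differed in opposite directions. Of its 16 genes with enough UMIs, 2 were past 1.5-fold higher and 2 lower, and the median log2 ratio was 0.21. The intervals of 5 genes lay above 1 and of 1 below, the same without the top cell of each gene. Over all 7322 genes these counts were 736 and 735, and 895 and 442 without the top cell. Gzma stood at 601 CPM (541 to 666) in the control and 394 CPM (355 to 437) under ENZ, a ratio of 0.656 (0.566 to 0.761). Gzmb, the granzyme that cleaves caspases, stood at 352 and 502 CPM, a ratio of 1.43 (1.21 to 1.69). Granzyme A was thus the lower and granzyme B the higher one in the ENZ library, with intervals on opposite sides of 1.

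Gzmk, the granzyme typical of early effector and memory cells, had 42 and 104 UMIs (69.4 and 113 CPM), a ratio of 1.63 (1.13 to 2.40). Prf1, the pore-forming perforin, had 23 and 31 UMIs, a ratio of 0.889 (0.502 to 1.60). Nkg7 differed by little, at a ratio of 0.967 (0.854 to 1.10). The effector cytokine Ifng stood at 87.5 and 121 CPM, a ratio of 1.38 (0.987 to 1.95). Without the top cell of each library, a step that raised ratios over all genes, it was 1.6 (1.11 to 2.35). Of these, Gzma and Gzmk showed shares of cells with a UMI, thinned to 1000 UMIs per cell, of 29.5% and 9.47% in the control and 16.4% and 11.9% under ENZ. The unthinned shares were 36.8% and 22.1% in the control and 28.9% and 39.6% under ENZ. In B cells, which should lack both, the thinned share was 0% of 29 and 0% of 16 cells, at median depths before thinning of 2611 and 2959 UMIs.

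The granule and granzyme genes are shown with stretches of promoter because Runx3, a factor known to drive CD8 T cell cytotoxic genes, was higher in CD8 than in CD4 T cells, at 540 against 213 CPM in the control and 608 against 140 CPM under ENZ. Each stretch is the 120 bases before the RefSeq start on the gene's strand, in GRCm38.p6, with the Runx letters TGTGGT, or ACCACA on the other strand, in capitals. Nkg7 lies at chr7:43437018-43437137 on the + strand, Gzma at chr13:113100982-113101101 on the - strand and Gzmb at chr14:56262335-56262454 on the - strand.
Nkg7: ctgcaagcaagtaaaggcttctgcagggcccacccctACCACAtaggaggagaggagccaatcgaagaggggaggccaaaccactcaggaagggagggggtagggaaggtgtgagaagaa
Gzma: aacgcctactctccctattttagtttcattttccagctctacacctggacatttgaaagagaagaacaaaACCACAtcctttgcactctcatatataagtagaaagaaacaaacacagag
Gzmb: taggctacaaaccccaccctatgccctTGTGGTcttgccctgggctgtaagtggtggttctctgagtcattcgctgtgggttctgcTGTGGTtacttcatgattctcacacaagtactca
The match began 83 bases before the RefSeq start in Nkg7, 50 in Gzma, and 93 and 34 in Gzmb. In GENCODE the Gzmb gene begins at chr14:56262260 on the - strand, not at the RefSeq start. Its distances hold for the RefSeq start only. Over the 250 bases before the start, 14.2% of 27025 promoters held these letters on either strand, and 12 of the 20 genes of the cytotoxic list with a promoter sequence did. A match of letters is no evidence of binding, and the differing directions of Gzma and Gzmb occurred with matches in both.

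Inhibitory receptors were present in both libraries. The checkpoint and exhaustion list had 2 of 17 genes past 1.5-fold higher and 2 lower, beside 14.9% and 13.9% of all genes. Its median log2 ratio was 0.22. Its summed level was 1344 CPM in the control and 1592 CPM under ENZ, a ratio of 1.18 (1.09 to 1.29), led by Tox. The intervals of 4 genes lay above 1 and of 1 below, and without the top cell of each gene these were 5 and 0. Pdcd1 had 83 UMIs in 31 of 95 control cells and 144 in 64 of 159 ENZ cells, or 137 and 157 CPM, a ratio of 1.14 (0.868 to 1.52). Havcr2 stood at 76.0 and 98.0 CPM, a ratio of 1.29 (0.895 to 1.88). Ctla4, an inhibitory receptor that competes for CD80 and CD86, stood at 124 and 100 CPM, a ratio of 0.809 (0.590 to 1.11). The intervals of all 3 included 1. Without the top cell of each library that of Havcr2 no longer did, at a ratio of 1.5 (1.01 to 2.27). That step takes 1 of 95 control but 1 of 159 ENZ cells and raised ratios at large. Over all genes it moved the intervals above 1 from 736 to 895 and those below 1 from 735 to 442. Whether Havcr2 and the list differ beyond that shift was not tested.

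Tox stood at 223 and 295 CPM, a ratio of 1.32 (1.07 to 1.64), with 28.9% of the control UMIs in 1 cell. In CD4 T cells the ratio of Tox was 1.31 (1.05 to 1.67). Prdm1, which encodes the effector factor Blimp-1, had 6 and 30 UMIs, a ratio of 3.30 (1.35 to 9.69). The receptors Lag3 and Tigit had 11 and 14 UMIs in the control and 17 and 23 under ENZ, too few for a narrower statement than ratios of 1.02 (0.450 to 2.41) and 1.08 (0.534 to 2.28).

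Naive and memory genes differed in both directions. Of 18 genes, 3 were past 1.5-fold higher in the ENZ library and 5 lower, beside 14.9% and 13.9% of all genes. The median log2 ratio was -0.20. Ly6c2 stood at 436 and 624 CPM, a ratio of 1.43 (1.24 to 1.66), and Lef1, a factor of naive and stem-like T cells, at 134 and 180 CPM (ratio 1.34, 1.02 to 1.78). Tcf7, which encodes TCF-1 of naive and stem-like cells, stood at 111 and 87.1 CPM (ratio 0.788, 0.562 to 1.11). Id3, which restrains effector differentiation, stood at 71.0 and 27.2 CPM (ratio 0.383, 0.224 to 0.642). In barcodes of at most 100 UMIs, Id3 stood higher, at 410 and 312 CPM. The share of such levels taken above as free RNA in CD8 T cells was 14.6% in the control and 8.67% under ENZ. The part of such free RNA in its CD8 T level and ratio was not tested. Satb1, a chromatin organizer of thymocytes and naive T cells, stood at 185 and 108 CPM (ratio 0.583, 0.440 to 0.771).

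Id2, the counterpart of Id3 that favors effector differentiation, was rank 11 of the higher genes among those reaching 100 CPM in a library, in order of their lower bounds. It had 60 UMIs in 30 of 95 control cells and 229 in 78 of 159 ENZ cells, or 99.1 and 249 CPM, a ratio of 2.52 (1.89 to 3.40). CD4 T cells had a similar ratio, 2.20 (1.53 to 3.25), and NK cells 1.65 (1.29 to 2.11). The Id2 difference was therefore not confined to CD8 T cells.

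Genes of tissue homing and residence stood out among the lists. Of 14 genes, 5 were past 1.5-fold higher in the ENZ library and 0 lower, beside 14.9% and 13.9% of all genes, and the median log2 ratio was 0.41. Cxcr6, a receptor that keeps CD8 T cells in tissue niches with CXCL16, had 14 and 61 UMIs, or 23.1 and 66.4 CPM, a ratio of 2.87 (1.59 to 5.56). It also led the gamma delta and innate-like T list, whose sum had a ratio of 2.37 (1.70 to 3.36). The part of innate-like T cells in the Cxcr6 difference was not tested. Ccr2, a receptor for monocyte chemoattractants, stood at 33.0 and 70.8 CPM (ratio 2.14, 1.28 to 3.74), with 40.0% of the control UMIs in 1 cell. Both of these chemokine receptors were higher in the ENZ library.

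The integrin genes followed in part. Itgal, the alpha chain of LFA-1, stood at 122 and 234 CPM, a ratio of 1.92 (1.47 to 2.53), and Itga4 at 352 and 492 CPM (ratio 1.40, 1.19 to 1.66). Cd69, a retention and early activation marker, stood at 132 and 199 CPM (ratio 1.51, 1.15 to 1.99). Itgb7 stood at 92.5 and 63.2 CPM (ratio 0.683, 0.465 to 1.0) and Klrg1, a marker of terminal effector cells, at 29.7 and 30.5 CPM. In CD4 T cells the ratio of Ccr2 was 0.634 (0.405 to 1.01) and of Cxcr6 1.35 (0.708 to 2.77). The difference between CD8 and CD4 T cells was not tested.

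**Figure D3:**
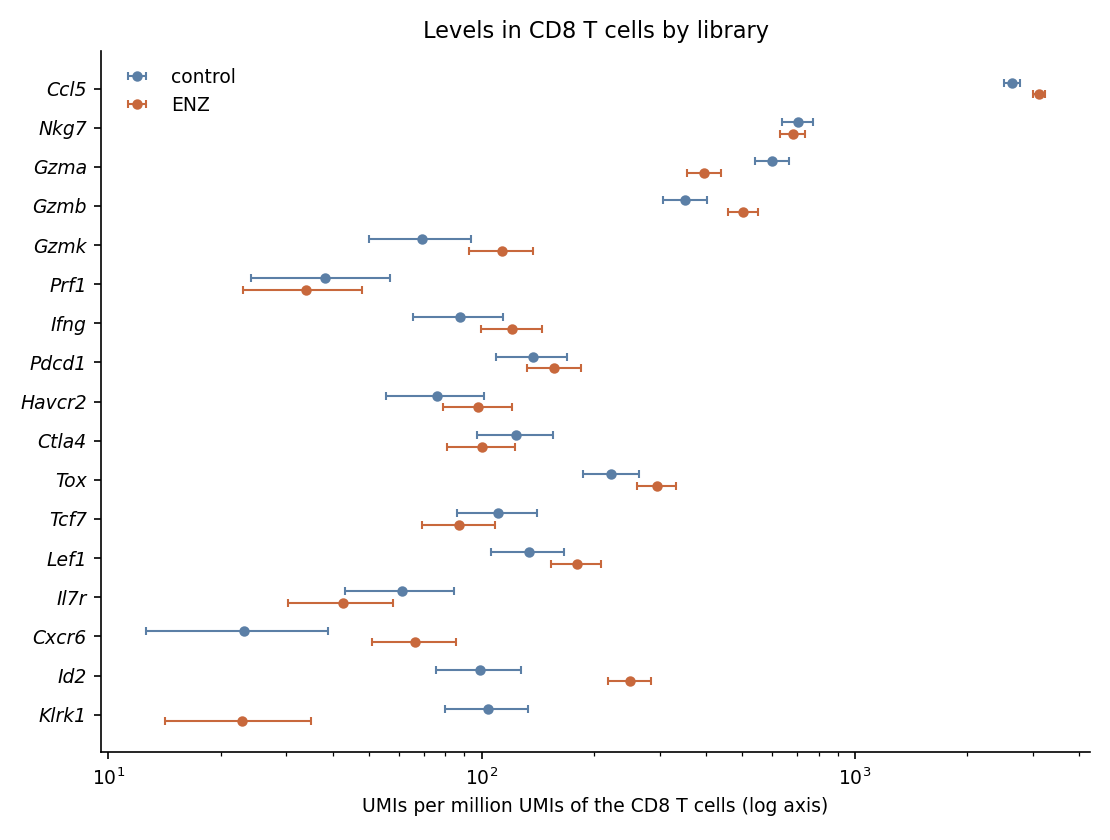
Points show CPM of 17 genes in the CD8 T cells of the control and ENZ libraries on a log axis, with exact Poisson 95% intervals. Cxcr6, Id2 and Gzmb lay higher in ENZ, Gzma and Klrk1 lower, and the intervals of Pdcd1, Havcr2 and Ctla4 overlapped between libraries.

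Of the receptors shared with NK cells, Klrk1 and Klra7 were lower in the ENZ library. Of 8 NK receptor genes with enough UMIs, 0 were past 1.5-fold higher and 4 lower, beside 14.9% and 13.9% of all genes, 2 intervals lay below 1, and the list summed to 608 CPM in the control and 354 CPM under ENZ. Klrk1, which encodes the activating receptor NKG2D, had 63 UMIs in 29 of 95 control cells and 21 in 18 of 159 ENZ cells, or 104 and 22.9 CPM, a ratio of 0.220 (0.127 to 0.365). Klra7 had 33 UMIs in 7 cells and 4 UMIs in 2 cells. Klrd1 and Klrc1, the chains of the CD94 and NKG2A receptor, stood at 109 and 92.6 CPM and at 57.8 and 53.4 CPM, with ratios of 0.850 (0.609 to 1.19) and 0.923 (0.586 to 1.47). The intervals of Klrd1 and Klrc1 included 1. Ncr1 and Klrb1c, by which NK cells were chosen, were near 0 in the CD8 T cells of both libraries, and the ratio of Klrk1 was 1.19 (0.896 to 1.56) in NK cells and 0.136 (0.0227 to 0.595) in CD4 T cells.

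Of 12 genes of the steroid receptor and target list with enough UMIs, 3 were past 1.5-fold higher and 1 lower. These stand beside 14.9% and 13.9% of all genes. Nr3c1, the glucocorticoid receptor, stood at 751 and 748 CPM, a ratio of 0.996 (0.883 to 1.12). Fkbp5, a chaperone gene induced by steroid receptors, stood at 97.4 and 123 CPM, a ratio of 1.26 (0.914 to 1.76).

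Camk1d, the kinase gene that the study examined in cancer cells, stood at 1628 CPM in control and 3287 CPM in ENZ CD8 T cells, a ratio of 2.02 (1.88 to 2.17). The same ratio was 1.95 (1.79 to 2.14) in CD4 T, 1.81 (1.64 to 2.0) in NK and 1.72 (1.38 to 2.15) in B cells. In barcodes of at most 100 UMIs, Camk1d stood at 2245 CPM in the control and 3192 CPM under ENZ. Gm42418, a feature that overlaps ribosomal RNA sequence, stood at 36702 and 80378 CPM in CD8 T cells (ratio 2.19, 2.16 to 2.22), with ratios of 2.24 in CD4 T and 1.92 in NK cells. Lars2, Gphn, Cdk8 and Cmss1 of the same list of features with rRNA-like reads had ratios of 2.16, 2.17, 2.32 and 2.01. The part of such reads in the Camk1d difference was not tested.

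Themis, a CD8 T cell marker, had a like ratio. It had 304 UMIs in the control and 883 under ENZ, a ratio of 1.92 (1.68 to 2.19), and 1.90 (1.51 to 2.42) in CD4 T cells. Zap70, a kinase downstream of the T cell receptor, stood at 49.5 and 90.4 CPM (ratio 1.82, 1.19 to 2.87). Cd3d stood at 512 and 487 CPM and Lck at 187 and 150 CPM, with ratios of 0.951 (0.821 to 1.10) and 0.806 (0.624 to 1.04). Cd3d is a gene of the rule, so its ratio is a description of the cells chosen. Of the 14 genes of the T cell receptor list that the rule did not use, 4 were past 1.5-fold higher and 0 lower. These stand beside 14.9% and 13.9% of all genes, and the count was made after the values had been seen.

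Interferon response genes were more often past 1.5-fold higher than genes at large. Of 17 genes, 6 were higher and 1 lower, beside 14.9% and 13.9% of all genes, with a median log2 ratio of 0.53. Gbp2, a guanylate-binding protein induced by interferon-gamma, had 7 UMIs in 5 cells of the control and 36 UMIs in 24 cells of the ENZ library, a ratio of 3.39 (1.49 to 9.03). Igtp, another interferon-gamma-induced GTPase, had 12 and 42 UMIs, a ratio of 2.31 (1.19 to 4.82). Rsad2, which encodes the antiviral protein viperin, had 6 and 33 UMIs, in 3 and 12 cells, a ratio of 3.63 (1.5 to 10.6). All 3 rested on few UMIs.

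The better counted members differed less. Ly6a, the surface protein Sca-1, stood at 130 and 232 CPM (ratio 1.78, 1.37 to 2.33). Isg15, a ubiquitin-like protein of the type I response, was lower, at 160 and 97.0 CPM (ratio 0.605, 0.449 to 0.815). Ifi27l2a, the most abundant of the list, stood at 682 and 619 CPM (ratio 0.907, 0.798 to 1.03).

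The 3 interferon genes with the highest ratios are shown with the 120 bases before their RefSeq start in GRCm38.p6, with letters of the interferon-stimulated response element (GAAA, any 2 bases and GAAA again, or TTTC, any 2 bases and TTTC on the other strand) in capitals. Gbp2 lies at chr3:142620543-142620662 on the + strand, Igtp at chr11:58199436-58199555 on the + strand and Rsad2 at chr12:26456453-26456572 on the - strand.
Gbp2: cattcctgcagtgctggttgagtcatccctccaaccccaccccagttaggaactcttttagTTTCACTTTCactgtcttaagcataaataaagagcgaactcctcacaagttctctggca
Igtp: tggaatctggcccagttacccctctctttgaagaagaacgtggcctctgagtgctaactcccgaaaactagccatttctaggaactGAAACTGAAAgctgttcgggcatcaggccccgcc
Rsad2: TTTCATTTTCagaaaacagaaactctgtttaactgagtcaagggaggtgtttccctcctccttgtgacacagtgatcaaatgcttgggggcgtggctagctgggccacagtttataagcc
The match began 59 bases before the start in Gbp2, 34 in Igtp and 120 in Rsad2. Over the 250 bases before the start, 3.04% of 27025 promoters held these letters, and 7 of the 13 list genes with a promoter sequence did.

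Cell cycle genes were more often past 1.5-fold lower in the ENZ library than genes at large. Of 16 genes, 9 were past 1.5-fold lower and 0 higher, beside 13.9% and 14.9% of all genes, and the median log2 ratio was -0.61. With cells thinned to 1000 UMIs the median was -0.17, and Pclaf and Cdk1 had log2 ratios of 0.087 and 0.064. Tubb5, a tubulin, stood at 732 and 390 CPM, a ratio of 0.533 (0.462 to 0.614). Ube2c, a ubiquitin-conjugating enzyme of mitotic exit, stood at 203 and 85.0 CPM (ratio 0.418, 0.311 to 0.560), and Top2a, the topoisomerase of dividing cells, at 391 and 260 CPM (ratio 0.665, 0.553 to 0.799). The replication clamp Pcna, at 180 and 204 CPM (ratio 1.13, 0.889 to 1.45), and Mki67, at 236 and 214 CPM (ratio 0.904, 0.725 to 1.13), had intervals that included 1.

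The lower levels were not matched by a clear difference in the number of cycling cells. With each cell thinned to 1000 UMIs, 22 of 95 control and 32 of 159 ENZ cells had at least 2 UMIs of Mki67, Top2a, Stmn1, Pclaf, Birc5 and Rrm2, or 23.2% (15.1 to 32.9%) and 20.1% (14.2 to 27.2%). The interval of the difference ran from -14.5 to 7.68 points. In B cells the counts were 0 of 29 and 0 of 16, and in keratin-high cells, those with at least 10 UMIs of Krt8 and Krt18 and 0 of CD3, 27.1% and 22.7%. Tubb5 and Ube2c were also lower in ENZ CD4 T cells, with ratios of 0.668 (0.543 to 0.825) and 0.440 (0.290 to 0.675).

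**Figure D4:**
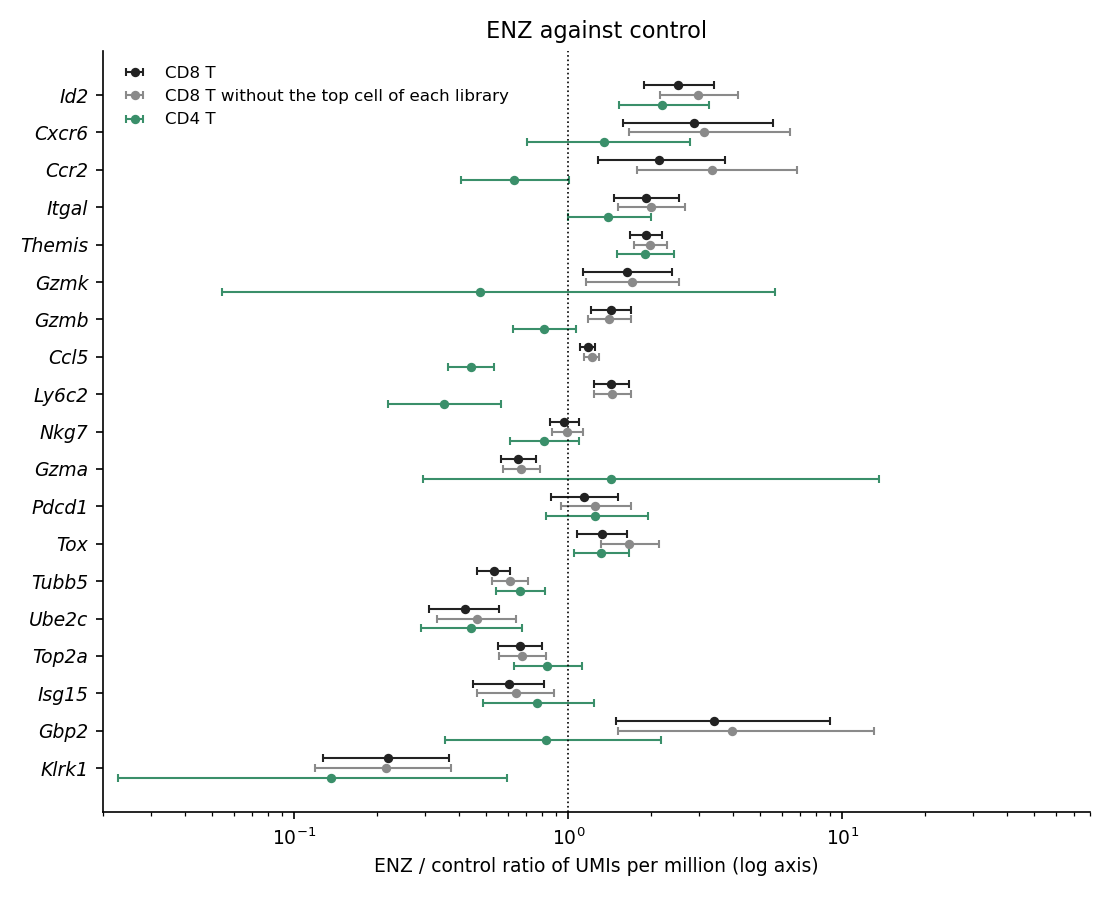
Points show the ENZ to control ratio of CPM on a log axis with exact conditional 95% intervals for 19 genes, in CD8 T cells, in CD8 T cells without the cell holding most UMIs of the gene in each library, and in CD4 T cells; the dotted line is a ratio of 1. The intervals of Cxcr6 and Gbp2 lay above 1 in CD8 T cells and included 1 in CD4 T cells, and those of Id2 and Themis lay above 1 in both.

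Subsets of the CD8 T cells held granzyme, checkpoint or naive genes. By the same rule of at least 2 UMIs after thinning, 24 of 95 control and 39 of 159 ENZ cells held granzyme or perforin UMIs (25.3% and 24.5%), 14 and 26 held checkpoint UMIs (14.7% and 16.4%), and 7 and 16 held naive UMIs (7.37% and 10.1%). The intervals of all 3 differences included 0. Of 29 control and 16 ENZ B cells, 0 and 0 met the granzyme rule, 1 and 0 the checkpoint rule, and 1 and 1 the naive rule. With at least 1 UMI after thinning in place of 2, the checkpoint share was 13.9 points higher in the ENZ library (0.837 to 26.2). No cell of either library met both the naive and the checkpoint rule, and 1 and 3 cells met both the granzyme and the checkpoint rule. The granzyme and cycling rules were both met by 4 control and 10 ENZ cells, and the checkpoint and cycling rules by 4 and 0. In 39 control and 62 ENZ cells none of the 4 rules was met. These are ranges of a count and not cell types: 17 control and 48 ENZ cells lay 1 UMI short of the checkpoint rule. At the full depth of each cell, which is uneven, the checkpoint share was 20.3 points higher in the ENZ library (7.31 to 32.9).

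Genes outside the rules differed between these ranges. Cells that met the granzyme rule had 8067 CPM of Ccl5 in the control and 4973 CPM under ENZ, against 1181 and 2320 CPM in the other CD8 T cells. Cells that met the naive rule had 820 and 683 CPM of Ccl5 and 205 and 376 CPM of Nkg7, against 2825 and 3374 CPM of Ccl5 in the others. The name is that of the rule and not of a naive state: of the 7 control cells that met it, 1 cell held 39 of the 42 Tox UMIs, 25 of the 27 Mki67 UMIs sat in 1 cell and all 18 Eomes UMIs in 1. The 16 ENZ cells had 79.7 CPM of Tox, against 318 CPM in the others, with 7 UMIs in 3 cells. Ccl5 was thus high with granzymes and low with naive genes in both libraries. Cells that met the checkpoint rule had 186 and 30.3 CPM of Gzma, against 691 and 456 CPM in the others. For Gzmb and Ifng each, the intervals were apart in 1 library and overlapped in the other. In the control Gzmb stood at 419 CPM (306 to 561) against 337 CPM (288 to 392) in the others, which overlapped. Ifng stood there at 214 CPM (136 to 321) against 60.2 CPM (40.6 to 86.0). Under ENZ Gzmb stood at 273 CPM (191 to 377) against 541 CPM (491 to 595). Ifng stood there at 75.7 CPM (36.3 to 139), from 10 UMIs, against 129 CPM (105 to 156), which overlapped.

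Reads from the variable segments of the T cell receptor were rare in these libraries but were not evenly spread over segments. A single V beta segment was detected in 14 of 95 control cells and 32 of 159 ENZ cells. In the ENZ library Trbv29 (chr6:41271394-41271881, + strand, GRCm38) was the segment of 14 of the 32 cells, or 43.8% (26.4 to 62.3%), followed by Trbv19 with 5. In the control it was seen in 0 of 14 cells, and Trbv19 led with 6. Here and below, 0 cells were read as at most 3, which is not a Clopper-Pearson limit. For Trbv29 in the control that allows a share of up to 21.4%. Of 21 ENZ CD4 T cells with a single V beta segment none had Trbv29, which allows up to 14.3% by the same reading, and Trbv1 led with 8.

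The V alpha segments, which were looked at after the V beta result had been seen, were uneven in the ENZ library as well. Trav4-4-dv10 (chr14:53683647-53684177, + strand) was the segment of 13 of the 17 ENZ CD8 T cells with a single V alpha segment, or 76.5% (50.1 to 93.2%). It was that of 0 of 5 control CD8 T cells, which allows a share of up to 60% and overlaps the ENZ interval, 1 of 5 control and 1 of 18 ENZ CD4 T cells, and 3 of 18 ENZ CD3-positive cells with no coreceptor or Foxp3 UMI. Of the latter, 2 of 19 with a single V beta segment had Trbv29. The V alpha locus of the mouse holds near-identical copies, so the name of this segment is uncertain. Of the 4 ENZ CD8 T cells with both chains detected, 2 had Trbv29 with Trav4-4-dv10, and no cell had either of these with another segment of the other chain.

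The 25 ENZ CD8 T cells with Trbv29 or Trav4-4-dv10, 15.7% of the 159, differed from the other 134 in some effector and checkpoint genes and not separably in others. Their median depth was 5030 UMIs, against 5101. Gzma stood at 51.9 CPM in them and 453 CPM in the others, a ratio of 0.115 (0.0457 to 0.238), with UMIs in 3 of 25 and 43 of 134 cells. Pdcd1 stood at 245 and 142 CPM (ratio 1.73, 1.13 to 2.57), with UMIs in 16 of 25 and 48 of 134 cells. Cxcr6 stood at 133 and 54.9 CPM (ratio 2.43, 1.32 to 4.30). The intervals included 1 for the checkpoint genes Havcr2 (ratio 0.980, 0.4995 to 1.78), Ctla4 (1.04, 0.545 to 1.86) and Tox (1.35, 0.972 to 1.83). They also did for the effector genes Gzmk (0.830, 0.425 to 1.49), Nkg7 (1.20, 0.963 to 1.48) and Ifng (1.60, 0.975 to 2.54). Of the other 134 cells, 114 had no single V segment detected and may carry the same segments. Against the 20 cells with another segment detected, a comparison added after the values had been seen, the ratio was 0.112 (0.0436 to 0.244) for Gzma, 1.54 (0.886 to 2.73) for Pdcd1 and 2.53 (1.05 to 6.72) for Cxcr6. Gzma was thus lower and Cxcr6 higher in both comparisons, while the interval of Pdcd1 included 1 in the second.

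Ccl5 stood at 3099 and 3120 CPM in the cells with and without these segments, a ratio of 0.994 (0.893 to 1.10), and Gzmb at 319 and 534 CPM (ratio 0.597, 0.426 to 0.819). Against the 20 cells with another segment these ratios were 1.35 (1.17 to 1.56) for Ccl5 and 0.710 (0.473 to 1.06) for Gzmb. Of 4 proliferation genes, Mki67 (ratio 0.587, 0.340 to 0.955), Hmgb2 (0.772, 0.633 to 0.934) and Stmn1 (0.687, 0.457 to 0.999) had intervals below 1, and Top2a (0.709, 0.453 to 1.07) did not. Id2 stood at 156 and 266 CPM (ratio 0.586, 0.355 to 0.920). Themis stood at 1394 and 887 CPM (ratio 1.57, 1.33 to 1.85). These are cells of 1 tumor and not replicates, and whether they descend from 1 cell was not tested, since no joined receptor sequence was read.

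**Figure D5:**
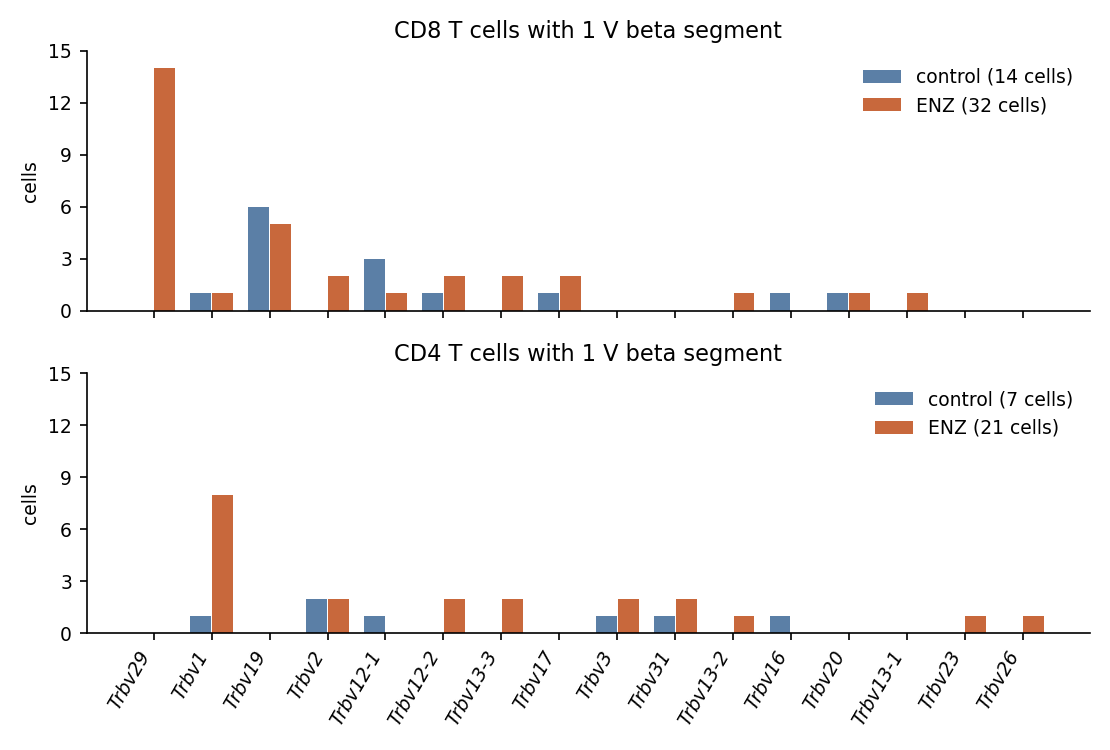
Bars show the number of cells with each V beta segment among CD8 T cells (upper panel, 14 control and 32 ENZ cells) and CD4 T cells (lower panel, 7 control and 21 ENZ cells) with exactly 1 segment detected. Trbv29 reached 14 cells in ENZ CD8 T cells and was not detected in the other 3 groups.

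The genes at the extremes of the whole comparison were mostly of another kind than those above. Of 1916 genes reaching 100 CPM in a library, 372 had an interval above 1 and 362 below 1. The 12 highest were led by Cma1, Tpsb2 and Cpa3, the mast cell genes of 1 ENZ barcode, followed by Gm19951, Cpeb4 (an mRNA-binding regulator of translation, 36.3 and 137 CPM, ratio 3.78, 2.39 to 6.24), Gm42418, Cdk8, Gphn, Lars2, Cmss1, Id2 and Camk1d. Cpeb4 stood at 103 and 118 CPM in CD4 T cells.

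The 12 lowest were Tas1r1, Tmem80, Chpt1, H2-Eb1, S100a9, Glod4, Klrk1, Lyz2, Cd74, H2-Aa, Cst3 and Ifitm3. In 10 of them over 30% of the control UMIs were in 1 cell, for Tas1r1 68.6% of 70 UMIs, and several are the MHC class II, neutrophil and myeloid genes listed above as those of other cell types. Without the top cell of each library 11 of the 12 intervals stayed below 1, that of S100a9 (ratio 0.704, 0.326 to 1.53) being the exception. Klrk1 was the member of this set with the smallest share in 1 control cell, 12.7%. The part of other cell types in the remaining differences was not tested.

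The immediate early genes showed how far 1 cell reached at this depth. Fos, an AP-1 factor induced soon after stimulation, stood at 130 and 40.3 CPM, a ratio of 0.309 (0.203 to 0.462), but 1 control cell held 63.3% of its UMIs there. Without the top cell of each library the ratio was 0.773 (0.457 to 1.32). Xcl1, a chemokine for cross-presenting dendritic cells, had 67.4% of its control UMIs in 1 cell, and its ratio went from 0.483 (0.343 to 0.677) to 0.942 (0.567 to 1.59). Of the genes named above, Cxcr6, Id2, Gzma, Gzmb, Klrk1 and Tubb5 had intervals on the same side of 1 with and without that cell.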

How the data were processed

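Droplet scRNA-seq was deposited by the authors as unnormalized UMI counts of 32285 genes in every barcode, in total 170830346 UMIs for the control and 162030149 for ENZ. The submitters' processing notes list Cell Ranger 2.1.1 and mm10, while the file header gives Cell Ranger 7.2.0; whether intronic reads were counted is not given in the sources used here. The counts were used as deposited.

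Cells, CD8 T cells and the other classes were chosen by UMI limits. CD4 T cells had CD3, Cd4 and no Cd8 or Foxp3 UMIs, regulatory T cells CD3 and Foxp3, NK cells Ncr1 and Klrb1c without CD3, and B cells at least 3 UMIs of Cd79a, Cd79b and Ms4a1 without CD3. The members and lists were chosen with earlier results of these data known. UMIs were summed per class and library as CPM, with exact Poisson intervals, exact conditional binomial intervals for ratios, Clopper-Pearson intervals for shares and Newcombe's for their differences. Thinned cells were drawn to 1000 UMIs without replacement. Genes named were the 12 highest and 12 lowest ratios among genes reaching 100 CPM in a library, ranked by the bound nearer 1, the 15 leading genes against CD4 T and NK cells, and genes of the lists with most UMIs or bounds farthest from 1. Certain genes that the rule would name were left out of the text. On Poisson counts simulated from the summed UMIs of the 7322 genes of this comparison, 96.2% of the ratio intervals held the true ratio. Those counts follow the model that the intervals assume and leave out the uneven spread of UMIs over cells. They therefore cannot show how the intervals fare where 1 cell holds much of a gene. No doublet caller was run. The V alpha segments, the comparison with cells of another V segment, the receptor list without the genes of the rule, the removal of the top cell and the mast, MHC class II and Lyz2 limits were added after seeing the data. Other alternatives covered the UMI, mitochondrial, CD3 and CD8 limits, scaling, ambient RNA, thinning and the mean of each cell's CPM. Scripts ran under Python 3.11.15 with pandas 2.3.3, scipy 1.17.1 and numpy 2.4.6. Promoters were taken from RefSeq on GRCm38.p6 and gene positions from GENCODE M21 on GRCm38.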

Additional observations from a re-analysis of the deposited data

Results flagged for a closer look

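Some genes had intervals on opposite sides of 1 in CD8 T cells and in another lymphocyte class, with 1 library per condition, so the difference between classes was not tested. Against CD4 T cells, the ENZ to control ratio was 1.18 for Ccl5 (0.440 in CD4 T), 1.43 for Ly6c2 (0.352), 1.71 for Cd6, a T cell costimulatory receptor (0.675), 0.604 for Junb, an AP-1 factor (1.53), and 0.165 for Chpt1, an enzyme of phospholipid synthesis (3.64). For Chpt1, 1 control CD8 T cell held 63.0% of the UMIs.

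Against NK cells, the ratio was 0.583 for Satb1 (1.62 in NK), 0.388 for Irf8 (1.20), 0.713 for Ikzf2 (1.72), 0.303 for Lyz2 (2.79) and 1.06 for the heat shock gene Hsp90aa1 (0.805). NK cells numbered 89 in the control and 34 under ENZ. The level of Ikzf2, which encodes Helios, had 33.5% of its control UMIs in 1 CD8 T cell, and without the top cell of each library its ratio was 0.992 (0.858 to 1.15).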

How the results depend on the processing

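No paired analysis was possible because the vehicle and ENZ arms hold 1 library apiece. The share of all cells was higher in ENZ under every alternative run, by 0.502 to 1.16 points, the highest with at most 20000 UMIs per cell. The difference in share of CD3-positive cells was -1.72 points with cells thinned to 1000 UMIs and from 2.19 to 5.0 points under the other alternatives, with an interval above 0 for at least 1 CD3 UMI. The cell cycle median was -0.17 with thinned cells and below 0 under all 12 alternatives. The naive difference was -6.09 points at full depth, and the checkpoint difference 20.3 points at full depth and 13.9 (0.837 to 26.2) with at least 1 UMI of the list. Single-gene ratios depended on depth and weighting. Of 116 named genes with an interval off 1, thinning left 65 within that interval, moved 43 out of it and reversed 8. Averaging CPM over cells left 93 of 118 within it, moved 23 and reversed 2. With at least 2 CD8 UMIs, 92 of 114 stayed and 22 moved. With thinned cells, which keep few UMIs, the log2 ratio turned to -0.20 for Il2rb, -0.0061 for Rgs1 and Il23r, -0.16 for Nfatc1, 0.087 for Pclaf, 0.064 for Cdk1, 0.0090 for Atp5b and 0.94 for Fos. Averaging CPM over cells, it turned to 0.13 for Ikzf2 and 0.016 for Ccnb2. Without the top cell it was -0.60 for Cma1, Tpsb2 and Cpa3, at the floor of 3 UMIs per library, and with limits on mast, MHC class II and Lyz2 UMIs 0.20 for Cd14; both alternatives were chosen after seeing the data. Leaving out the top cell takes 1 of 95 control but 1 of 159 ENZ cells, and moved the genes with an interval above 1 from 736 to 895 and below 1 from 735 to 442. The causes of these changes were not tested. Depth limits genes under about 20 UMIs.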

Other observations

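Transcription factors outside the effector and exhaustion genes differed in both directions. Of 20 genes of the list, 5 were past 1.5-fold higher under ENZ and 1 lower, beside 14.9% and 13.9% of all genes. Rora, a nuclear receptor of tissue lymphocytes, stood at 258 and 435 CPM, a ratio of 1.69 (1.40 to 2.04), and its ratio was 1.49 (1.29 to 1.72) in CD4 T cells. Bhlhe40, which supports mitochondrial function of tissue T cells, had a ratio of 1.62 (1.19 to 2.22) in CD8 T and 1.62 (1.19 to 2.24) in CD4 T cells. Irf8 was lower in both, at 0.388 (0.239 to 0.621) and 0.364 (0.191 to 0.699). These 3 genes thus had intervals on the same side of 1 in CD8 and CD4 T cells.

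MHC class I genes of the CD8 T cells themselves differed by little. B2m stood at 2292 and 2242 CPM (ratio 0.978, 0.913 to 1.05), and H2-K1 and H2-D1 had ratios of 0.940 (0.859 to 1.03) and 0.988 (0.894 to 1.09). Nlrc5, the transactivator of class I genes, stood at 127 and 194 CPM (ratio 1.52, 1.16 to 2.02). In the antigen presentation list, which also holds class II genes, 2 of 12 genes were past 1.5-fold higher and 2 lower. Over all genes 14.9% were higher and 13.9% lower. The corresponding counts were 1 and 1 of 17 for glycolysis and mitochondria, 2 and 1 of 11 for costimulation, 3 and 2 of 11 for cytokines and chemokines, and 0 and 5 of 13 for immediate early and heat shock genes. The 5 of 13 stand beside 13.9% of all genes lower, but without the top cell of each gene the intervals below 1 in that list went from 5 to 1 and those above 1 from 1 to 2. Over all genes the same step took the intervals below 1 from 735 to 442 and those above 1 from 736 to 895.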
